A study of Mus musculus with 31 samples.

Results

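The olfactory nerve layer (ONL) at E13.5 (E, embryonic day) was compared with the olfactory nerve at E11.5, across all genes that passed an expression filter. The 9 libraries of this comparison, of 31 in the series, were assigned to their groups by the study's table of group means and not by their deposited labels. In that table the mean for E13.5 ONL was the equal average of the 5 libraries labelled E11.5_ON1 to E11.5_ON4 and E13.5_ON1, over 1738 genes and with a largest residual of 0.000775%. The mean for E11.5 olfactory nerve was the equal average of the 4 libraries labelled E13.5_ONL2 to E13.5_ONL5, over 1704 genes and with a largest residual of 0.000798%. Averages of the libraries that carry each label missed those means by a median of 28.9% and 32.1%. The 16 columns of the 2 earlier stages ran as blocks of 5, 7 and 4 libraries under the group means and as blocks of 4, 7 and 5 under the labels. Directions below follow the group means. Under the labels E11.5_ON1 to E11.5_ON4 are E11.5 olfactory nerve, E13.5_ON1 is E13.5 olfactory nerve and E13.5_ONL2 to E13.5_ONL5 are E13.5 ONL. A gene higher in E13.5 ONL here is thus higher in the libraries labelled E11.5 and in E13.5_ON1.

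All libraries came from Sox10:H2BVenus BAC transgenic mouse embryos, in which a nuclear reporter under Sox10 regulatory sequence marks neural crest-derived glia. Pieces were cut by laser microdissection from cryosections under fluorescence, with tissue of 4 to 7 sections pooled per sample. The E11.5 pieces were cut from olfactory nerve within the mucosal lamina propria of 2 embryos, and the E13.5 pieces from the ONL around the forming olfactory bulb of 4 embryos. Which libraries share an embryo is not given in the sources used here, so p-values measure the spread between pieces. Stage and position changed together between the 2 groups and cannot be told apart. For that reason the level in the 7 libraries averaged as E13.5 olfactory nerve (mucosal pieces of the later stage, labelled E13.5_ON2 to E13.5_ON7 and E13.5_ONL1) is given beside that of many genes, as a value without a test. A piece holds every cell in the cut area, and in such bulk samples fewer cells of a type and less RNA per cell cannot be told apart.

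Olfactory ensheathing cells (OECs) are the glia of the olfactory nerve. They arise from the neural crest, express Sox10, and wrap bundles of olfactory axons rather than single axons. Mucosal OECs lie along the nerve in the olfactory mucosa, and ONL-OECs lie on the surface of the olfactory bulb, where axons sort before they enter glomeruli. At the earlier stage axons, migrating neurons and glia form the migratory mass between the olfactory epithelium and the forebrain, and the ONL begins to thicken once the bulb has evaginated.

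Much of the transcriptome differed between the groups. The quasi-likelihood test of edgeR was applied to 19332 genes, and 7037 were called at a Benjamini-Hochberg adjusted p under 0.05. These were 3863 genes higher in E13.5 ONL, 20.0% of those tested, and 3174 lower, or 16.4%. The counts of each gene list below are to be read beside these 2 shares. The median log2 fold change over all tested genes was 0.03. Every E13.5 ONL library lay above every E11.5 library for 2506 genes, and below every one for 2086 genes, or 10.8% of those tested. Levels are CPM (counts per 1e6 counts of the library), scaled with edgeR's trimmed mean of M-values (TMM) factors, and log2 fold changes are E13.5 ONL over E11.5. The 5 E13.5 ONL libraries held 3512627 to 27398916 counts and the 4 E11.5 libraries 24218053 to 36705535. Mitochondrial genes took 1.10% to 1.99% of counts in E13.5 ONL and 0.549% to 0.886% in E11.5. Spearman correlations of log2 CPM ran from 0.950 to 0.984 within E13.5 ONL, from 0.948 to 0.978 within E11.5 and from 0.875 to 0.928 between the groups, over genes that are not independent.

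**Figure D1:**
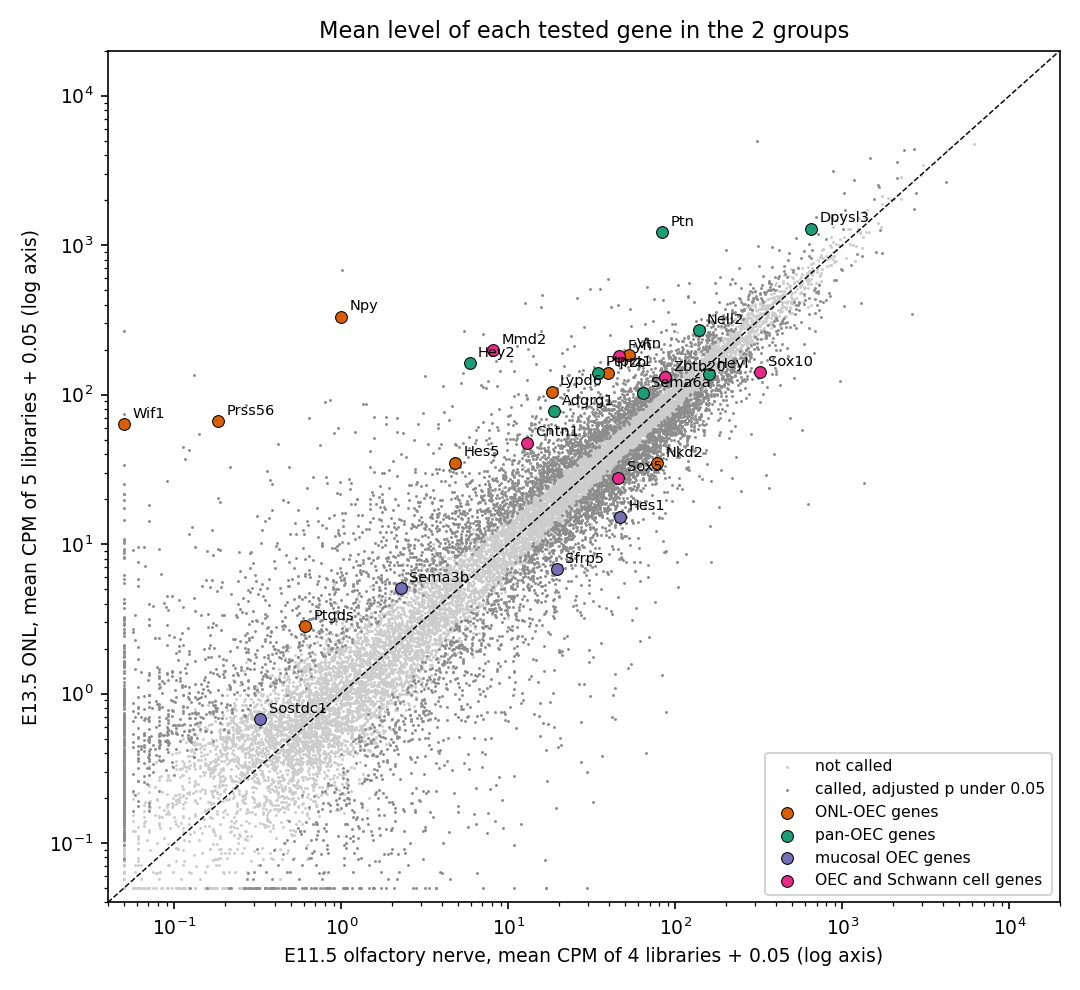
Mean CPM plus 0.05 of each of the 19332 tested genes in the 4 E11.5 libraries (x axis, log scale) and the 5 E13.5 ONL libraries (y axis, log scale), with genes called at an adjusted p under 0.05 in darker grey, genes of the OEC lists in colour and the dashed line at equal levels. Wif1, Prss56 and Npy lie far above the line, while Sox10 lies below it.

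Genes that mark ONL-OECs later in development were mostly higher in E13.5 ONL. Of the 9 ONL-OEC genes, seen by the study at E16.5 in ONL-OECs and in no or few mucosal OECs, 7 rose, 1 fell and 1 did not pass the test. The median log2 fold change was 2.52, against 0.03 over all genes. The study chose the OEC lists on libraries of this series, so they are not independent evidence of a direction. At about E13.5 the study's in situ hybridization found Hes5, Wif1, Vtn, Npy and Prss56 in ONL-OECs. It found no OEC expression of Lypd6, Ptgds or Nkd2 at that stage. At E11.5 it saw none of the genes just named in mucosal OECs. The cells behind the counts of Lypd6, Ptgds and Nkd2 here, and behind the E11.5 counts of the others, were not tested. In the values that follow, E13.5 ONL libraries are given in the order labelled E11.5_ON1 to E11.5_ON4 and E13.5_ON1, and E11.5 libraries in the order labelled E13.5_ONL2 to E13.5_ONL5.

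Wif1 encodes a secreted protein that binds Wnt ligands. It had 56.5, 51.8, 72.6, 67.5 and 67.8 CPM in the E13.5 ONL libraries and no count in any of the 4 E11.5 libraries. Against a floor of 3 counts per E11.5 library it was at least 661-fold higher in E13.5 ONL (adjusted p = 3.57e-12), and the E13.5 olfactory nerve libraries had 1.69 ± 1.16 CPM (SD, n = 7). Npy, encoding neuropeptide Y, had 165.7, 313.2, 457.7, 328.6 and 397.5 CPM in E13.5 ONL against 2.44, 0.0543, 0.871 and 0.420 in E11.5, with a log2 fold change of 8.42 (SE 0.62, adjusted p = 1.2e-11). Prss56, encoding a trypsin-like serine protease, had 32.9, 69.1, 65.1, 75.9 and 90.0 CPM in E13.5 ONL and at most 0.318 CPM in an E11.5 library (log2 fold change 8.86, SE 0.75, adjusted p = 2.83e-10). The groups of all 3 genes lay far apart, and their mean levels in E13.5 olfactory nerve, at 1.69, 1.75 and 0.0667 CPM, were far below those of E13.5 ONL. All 7 E13.5 olfactory nerve libraries held Wif1 counts, at 0.406 to 3.66 CPM. Without the library labelled E13.5_ONL2, which held the highest E11.5 levels of both, the log2 fold changes of Npy and Prss56 were 9.64 and 9.84.

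The other ONL-OEC genes moved less. Frzb, encoding a secreted Wnt antagonist, had 154.1, 83.0, 137.8, 177.0 and 144.6 CPM in E13.5 ONL and 25.5, 41.5, 38.4 and 52.4 in E11.5 (log2 fold change 1.82, SE 0.25, adjusted p = 9.72e-07). Lypd6, encoding a membrane-anchored modulator of Wnt signalling, had 104.6 ± 39.0 CPM (SD, n = 5) against 18.1 ± 5.72 (SD, n = 4), a log2 fold change of 2.52 (SE 0.29, adjusted p = 7.15e-08). For both genes every E13.5 ONL library was higher than every E11.5 library. Hes5, a transcriptional effector of Notch, had 6.36, 50.9, 36.9, 18.1 and 63.2 CPM against 0.583, 9.40, 2.70 and 6.34, and the groups overlapped by the lowest E13.5 ONL library (log2 fold change 2.90, SE 0.63, adjusted p = 0.000523). Ptgds, encoding a prostaglandin D synthase, was low in both groups, at 2.78 ± 1.71 and 0.560 ± 0.388 CPM (SD, n = 5 and 4, log2 fold change 2.47, adjusted p = 0.00119). Vtn, encoding the matrix protein vitronectin, had 136.1 to 224.6 CPM in E13.5 ONL and 40.6 to 71.3 in E11.5 without overlap, and did not pass the test (log2 fold change 1.82, SE 0.73, adjusted p = 0.0501). Nkd2, encoding an intracellular Wnt antagonist, went the other way, with 34.8 ± 5.88 CPM in E13.5 ONL, 77.9 ± 26.5 in E11.5 and 132.8 ± 9.05 in E13.5 olfactory nerve (log2 fold change -1.17, SE 0.20, adjusted p = 3.24e-05).

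Pan-OEC genes, seen by the study at E16.5 in all OECs but not in trigeminal Schwann cells, were also mostly higher in E13.5 ONL. Of 9 genes 7 rose, 1 fell and 1 did not pass the test, with a median log2 fold change of 0.98. Ptn, encoding the secreted growth factor pleiotrophin, had 1330, 876, 1271, 1142 and 1486 CPM in E13.5 ONL against 98.2, 72.1, 75.9 and 85.6 in E11.5 (log2 fold change 3.88, SE 0.22, adjusted p = 7.57e-14). Its level in E13.5 olfactory nerve was 982 ± 158 CPM (SD, n = 7), so both E13.5 groups lay above all 4 E11.5 libraries. Ptprz1, encoding a receptor phosphatase that binds pleiotrophin, had 140.5 ± 24.0 CPM in E13.5 ONL, 34.2 ± 13.1 in E11.5 and 23.4 ± 4.23 in E13.5 olfactory nerve (log2 fold change 2.04, SE 0.21, adjusted p = 6.48e-09). By level in whole pieces, Ptprz1 was thus high in E13.5 ONL alone of the 3 groups, while its ligand gene Ptn was high in both E13.5 groups. By in situ hybridization the study saw both genes in mucosal OECs at E11.5 and about E13.5, and Ptn strongly in mucosal mesenchyme at the later stage. For low Ptprz1 in E16.5 olfactory nerve the study gave sparser mucosal OECs as the likely reason, which was not tested here.

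Adgrg1, encoding an adhesion G protein-coupled receptor, had 60.8 to 126.7 CPM in E13.5 ONL and 13.4 to 23.0 in E11.5 (log2 fold change 2.05, adjusted p = 5.34e-07). Dpysl3, encoding a cytosolic protein of growing axons, had 1290 ± 169 against 652 ± 77.8 CPM (log2 fold change 0.98, adjusted p = 5.09e-05). Nell2, encoding a secreted guidance glycoprotein, had 269 ± 61.0 against 137.5 ± 55.4 CPM with overlapping libraries (log2 fold change 0.97, adjusted p = 0.0064). The semaphorin gene Sema6a had 102.5 ± 11.8 against 63.9 ± 12.6 CPM (log2 fold change 0.68, adjusted p = 0.000763). Heyl, a Notch effector, had 137.6 ± 43.4 and 157.9 ± 55.0 CPM and did not pass the test (adjusted p = 0.585).

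The genes shared by OECs and Schwann cells split in direction, with 5 of 7 higher and 2 lower in E13.5 ONL. Sox10, the transcription factor gene of neural crest glia whose reporter guided the dissection, was lower in E13.5 ONL, at 71.4, 110.5, 178.6, 130.9 and 219.0 CPM, than in E11.5, at 338.3, 287.2, 357.7 and 299.2 (log2 fold change -1.17, SE 0.25, adjusted p = 0.0004). In E13.5 olfactory nerve Sox10 had 57.4 ± 18.1 CPM (SD, n = 7), a mean below those of both groups. Mmd2, encoding a multi-pass membrane protein, had 198.8 ± 47.9 against 8.09 ± 4.58 CPM (log2 fold change 4.62, SE 0.36, adjusted p = 5.63e-11). Mmd2 thus rose over 10-fold where Sox10 was lower, with no overlap between groups for either gene. Fyn, a Src-family kinase gene, had 180.2 ± 43.7 against 46.2 ± 5.28 CPM (log2 fold change 1.97, adjusted p = 1.33e-07), and the adhesion gene Cntn1 had 47.7 ± 30.8 against 12.9 ± 5.66 (log2 fold change 1.86, adjusted p = 0.000107). Zbtb20, a zinc-finger repressor gene, rose by 0.59 on the log2 scale (adjusted p = 0.0166) and Sox5 fell by 0.70 (adjusted p = 0.0452). Both calls were weak, since Zbtb20 was lost without the library labelled E13.5_ONL2, E13.5_ONL4 or E13.5_ONL5 (log2 fold change 0.53, 0.51 or 0.54) and Sox5 in 7 of the 9 fits that left out 1 library.

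Of the 5 mucosal OEC genes, seen by the study at E16.5 in Schwann cells and in OECs of the mucosa and missing from ONL-OECs, 1 rose, 2 fell and 2 did not pass the test, with a median log2 fold change of -0.07. Hes1, a Notch effector, had 4.70, 12.8, 21.2, 9.24 and 28.0 CPM in E13.5 ONL and 66.8, 52.2, 26.3 and 41.8 in E11.5 (log2 fold change -1.58, SE 0.38, adjusted p = 0.00149). Sfrp5, encoding a secreted Wnt inhibitor, had 6.77 ± 3.61 against 19.5 ± 5.53 CPM (log2 fold change -1.49, adjusted p = 0.00421). In E13.5 olfactory nerve Hes1 had 44.8 ± 19.3 CPM, near its E11.5 level, and Sfrp5 had 3.21 ± 1.49. Sema3b, a secreted guidance gene, was higher in E13.5 ONL at 5.02 ± 0.735 against 2.22 ± 1.89 CPM (log2 fold change 1.22, adjusted p = 0.0142, and 1.87 without the library labelled E13.5_ONL4). In E13.5 olfactory nerve Sema3b had 7.32 ± 1.87 CPM. By in situ hybridization the study saw Sema3b at about E13.5 in mucosal OECs and not in ONL-OECs. It saw none in mucosal OECs at E11.5. The cells behind the Sema3b counts here were not tested. The Wnt and Bmp inhibitor gene Sostdc1 averaged 0.622 CPM in E13.5 ONL and 0.277 in E11.5, and did not pass the test.

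Because Sox10 itself was lower in E13.5 ONL, the 29 other OEC genes were also described relative to the Sox10 level of the same library, with 0.5 CPM added to both. On that scale 22 of the 29 were higher in every E13.5 ONL library than in every E11.5 library and 1 was lower. The same held for 55.6% and 0.678% of all genes, so most genes were higher per Sox10 level.

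**Figure D2:**
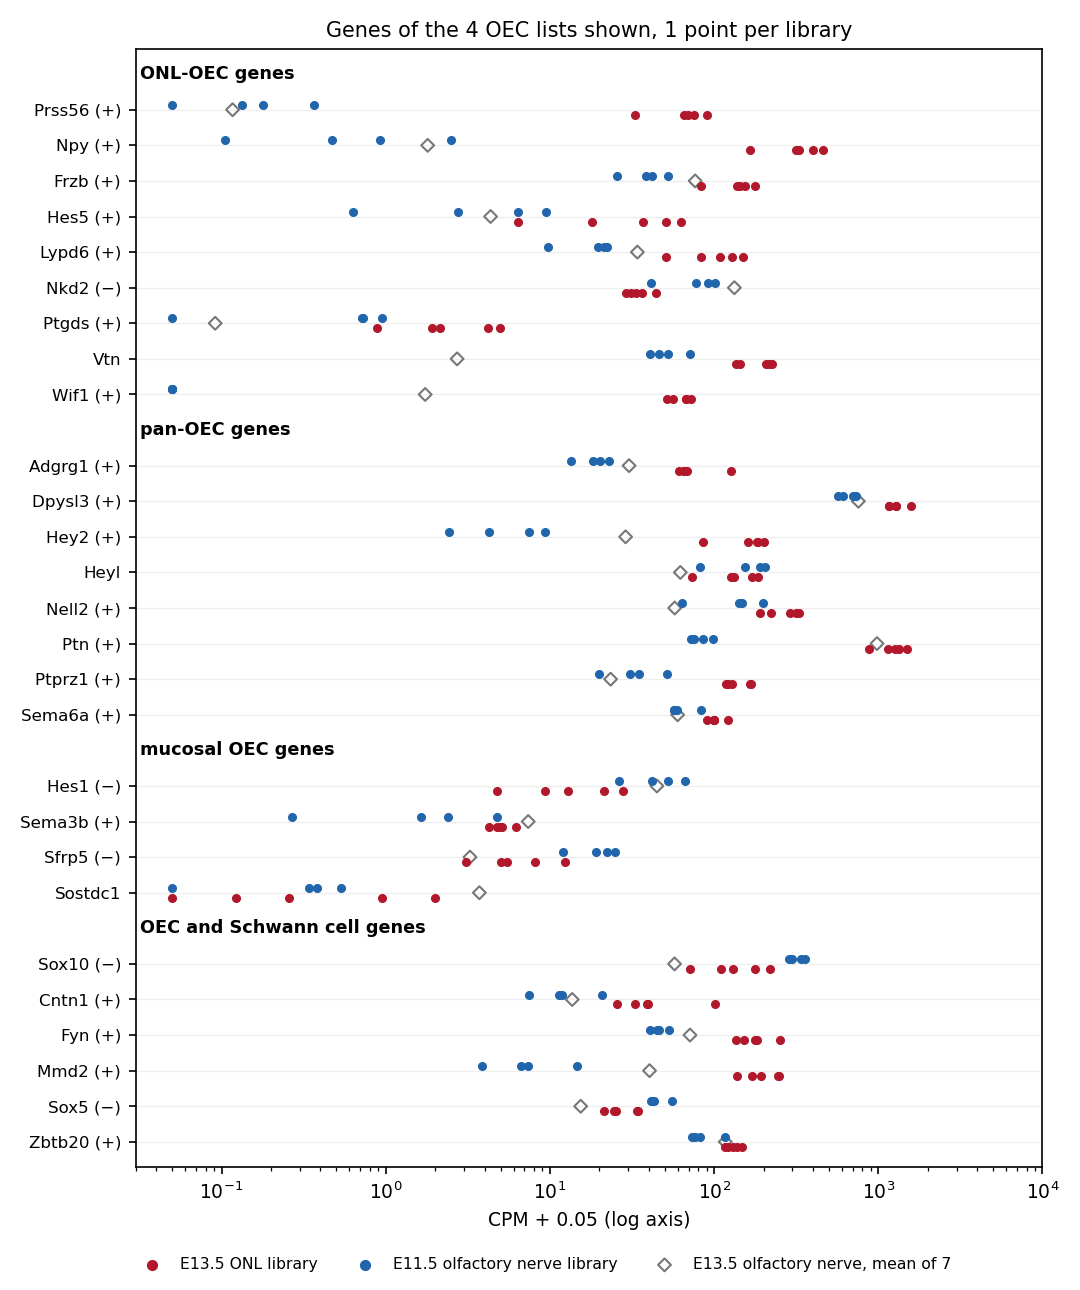
CPM plus 0.05 (x axis, log scale) of the OEC genes in each E13.5 ONL library (red) and each E11.5 olfactory nerve library (blue), with the mean of 7 E13.5 olfactory nerve libraries as a grey diamond and genes called higher or lower in E13.5 ONL marked + or −. Red and blue points lie apart for Npy, Prss56, Wif1, Hey2, Ptn and Mmd2, and the diamond of Ptn lies with the red points while those of Npy and Prss56 lie with the blue.

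Of 18 early glial and neural crest genes 4 were higher and 5 lower, against 20.0% and 16.4% of all genes tested, with a median log2 fold change of -0.30. Fabp7, encoding the fatty acid-binding protein of early glia and radial glia, had 4021, 3906, 6006, 5225 and 5902 CPM in E13.5 ONL and 468.8, 194.5, 343.0 and 230.6 in E11.5 (log2 fold change 4.02, SE 0.31, adjusted p = 3.98e-11). No tested library of the E11.5 group came near the E13.5 ONL level, and E13.5 olfactory nerve had 456 ± 150 CPM (SD, n = 7). Ednrb, the endothelin receptor gene of crest cells, had 166.3 ± 60.6 against 68.7 ± 36.3 CPM (log2 fold change 1.27, adjusted p = 0.00382). S100b, encoding a glial calcium-binding protein, had 9.63 ± 3.76 against 0.716 ± 0.765 CPM (log2 fold change 3.69, adjusted p = 5.13e-08, and 4.76 without the library labelled E13.5_ONL3). The Schwann cell cadherin gene Cdh19 rose by 0.91 on the log2 scale (adjusted p = 0.00727). The genes that fell were transcription factor genes of the early crest, Sox9 from 131.7 ± 30.2 to 39.2 ± 20.6 CPM, Sox8 from 69.5 ± 18.6 to 26.8 ± 8.66, Snai2 from 41.4 ± 9.36 to 21.1 ± 6.93, Tfap2a from 11.96 ± 4.53 to 3.05 ± 1.13 and Pax3 from 5.69 to 0.343. Sox8 shares exon bases with an antisense transcript, and the strand setting of the counting is not given. Tfap2b, the listed gene of highest level that was not called, had 142.5 ± 29.7 and 170.2 ± 55.2 CPM.

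Notch pathway genes did not move as a block, and effectors of the same family went opposite ways. Notch receptors bind Delta and Jagged ligands on neighbouring cells, and the cleaved receptor acts with Rbpj on Hes and Hey genes. Of 20 genes 7 were higher and 3 lower, against 20.0% and 16.4% of all genes tested, with a median log2 fold change of 0.29. Hey2 had 181.2, 85.9, 160.0, 201.4 and 184.8 CPM in E13.5 ONL and 9.25, 2.39, 7.39 and 4.20 in E11.5 (log2 fold change 4.81, SE 0.33, adjusted p = 3.23e-12). Hey1 had 24.6, 28.2, 20.6, 34.1 and 28.8 CPM against 154.1, 103.8, 161.2 and 154.1 (log2 fold change -2.39, SE 0.19, adjusted p = 4.01e-11). The 2 Hey genes thus exchanged rank between the groups with no overlap in either, as Hes5 rose and Hes1 fell. In E13.5 olfactory nerve Hey2 had 28.9 ± 6.05 and Hey1 161.1 ± 34.3 CPM. Of the receptors, Notch2 had 43.1 ± 9.56 against 12.3 ± 2.69 CPM (log2 fold change 1.82, adjusted p = 1.79e-08), while Notch1, at 28.1 ± 5.46 and 20.1 ± 3.27, was called at 0.49 and lost in 4 of 9 fits without 1 library. Rbpj rose from 43.2 ± 10.6 to 69.5 ± 15.5 CPM (adjusted p = 0.00645). The ligand gene Jag2 fell from 14.7 ± 4.28 to 5.92 ± 1.55 CPM (adjusted p = 0.00135).

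The promoters of Hes5 and Hey2, the 2 Notch effector genes that rose, are shown because RefSeq's table for build GRCm38.p6 held them. Hes1, Hey1 and Heyl were not matched in it, and Hes6 was not looked up. Each run is the 250 bases before the start of the gene, 5′ to 3′ on the gene's strand, and capitals mark TGGGAA, the core of a binding site of Rbpj, or its reverse complement TTCCCA. The Hes5 run lies at chr4:154960673-154960922 on the plus strand and the Hey2 run at chr10:30842784-30843033 on the minus strand.
Hes5: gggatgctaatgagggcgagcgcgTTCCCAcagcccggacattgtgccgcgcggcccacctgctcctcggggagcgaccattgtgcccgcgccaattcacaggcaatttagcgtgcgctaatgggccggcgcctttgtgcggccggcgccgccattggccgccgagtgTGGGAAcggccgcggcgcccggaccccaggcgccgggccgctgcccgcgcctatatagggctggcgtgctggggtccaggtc
Hey2: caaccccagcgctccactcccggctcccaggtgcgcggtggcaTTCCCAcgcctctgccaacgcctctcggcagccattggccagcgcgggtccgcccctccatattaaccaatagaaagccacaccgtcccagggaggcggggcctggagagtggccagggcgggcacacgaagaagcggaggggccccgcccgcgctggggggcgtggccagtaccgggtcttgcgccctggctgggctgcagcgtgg
The Hes5 run held the letters at 2 places, starting 226 and 82 bases before the gene's start, and the Hey2 run at 1 place, starting 207 bases before it. Of 32851 promoters in the table, 21.6% held them in the same window on either strand, so a match is a description of the letters and not of binding.

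Wnt modulators rose more often than they fell, with 15 of 25 tested genes higher and 4 lower and a median log2 fold change of 1.43. Beside Wif1, Frzb and Lypd6, which are also ONL-OEC genes, Axin2, Lef1, Nkd1, Apcdd1 and Znrf3 were higher in E13.5 ONL, while Nkd2, encoding a Wnt feedback inhibitor like Nkd1, was called lower at -1.17 (adjusted p = 3.24e-05). Apcdd1, encoding a membrane-bound inhibitor of Wnt signalling, had 44.8, 47.1, 41.8, 46.9 and 50.4 CPM in E13.5 ONL against 6.52, 5.68, 2.95 and 4.17 in E11.5 (log2 fold change 3.25, SE 0.29, adjusted p = 9.44e-10). Axin2, a widely used target gene of the pathway, had a mean of 11.97 against 1.81 CPM and Lef1, its nuclear partner of beta-catenin, 28.0 against 9.65. Ligand genes differed in direction. Wnt7b had a mean of 22.0 against 2.45 CPM and Wnt7a 16.7 against 0.499, Wnt3 had 5.82 CPM in E13.5 ONL and no count in E11.5, at least 60.8-fold higher, and Wnt5a fell from 24.9 ± 4.17 to 7.97 ± 1.15 CPM (log2 fold change -1.65, adjusted p = 5.02e-06). Axin2, Lef1, Wnt3, Wnt7a and Wnt7b were chosen for naming after their values were seen, and Nkd1 and Znrf3 were also named outside the rule for naming genes. Lgr5 was called lower at -2.01, and at -0.86 (adjusted p = 0.159) without the library labelled E13.5_ONL3. Sfrp1, the most abundant member not called, had 131.2 ± 26.1 and 94.8 ± 28.3 CPM.

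Of 12 myelin genes tested 7 were higher and none was lower, with a median log2 fold change of 1.01. The count of rises was 7 of 12 with DESeq2, 4 of 11 with the 9 libraries alone and 2 of 11 with a replicate block. It was 2 of 7 with the 9 libraries thinned to the lowest total and 2 of 12 by the GEO labels. Pmp22, encoding a peripheral myelin membrane protein, had 54.6 ± 11.6 against 25.2 ± 4.73 CPM (log2 fold change 1.11, adjusted p = 8.74e-06). Mal, at 9.39 ± 4.34 against 0.834 ± 0.972 CPM (log2 fold change 3.41, and 4.44 without the library labelled E13.5_ONL2), and Ugt8a, encoding the enzyme of galactocerebroside synthesis, at 14.0 ± 4.34 against 7.39 ± 2.47, also rose. Neither Mbp, at a mean of 26.4 and 33.2 CPM, nor Cnp, at 71.3 ± 18.5 and 91.6 ± 31.6, was called. The count of 0 lower calls, from edgeR, was also 0 at an unadjusted p under 0.05 and with DESeq2, while 1 gene was called lower without the library labelled E13.5_ONL3.

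The genes with the largest changes included genes of neurons, epithelia and red cells beside 3 ONL-OEC genes. By the rule, these were called protein-coding genes whose higher group averaged 50 CPM or more and whose groups did not overlap, which 1710 genes met. The 10 largest rises were those of Neurod6, Tfap2e, Wif1, Nts, Prss56, Cntn3, Npy, Sez6, Sv2b and Ntrk2. Neurod6, a basic helix-loop-helix gene of cortical projection neurons, had 397.3, 205.9, 231.8, 241.6 and 249.9 CPM in E13.5 ONL and no count in E11.5, at least 2775-fold higher. Tfap2e, an AP-2 family gene of olfactory bulb projection neurons, had 42.3, 119.2, 89.4, 61.9 and 55.3 CPM and no count in E11.5, at least 769.9-fold higher. Nts, encoding the neuropeptide neurotensin, had 915.9, 649.3, 558.4, 597.1 and 696.3 CPM against 2.57, 0.0815, 0.788 and 0.388 (log2 fold change 9.44, SE 1.09, adjusted p = 8.24e-08). All 3 were at or under 1.20 CPM on average in E13.5 olfactory nerve as well. Cntn3, Sez6 and Sv2b had means of 85.5, 69.5 and 89.7 CPM in E13.5 ONL and under 1 CPM in E11.5. Ntrk2, encoding the neurotrophin receptor TrkB, had 86.9 ± 11.3 against 1.29 ± 1.35 CPM, and differed from the others of this set in its level of 99.9 ± 24.6 CPM in E13.5 olfactory nerve. Leaving out 1 E11.5 library moved these fitted values where E11.5 levels were near 0, to 10.76 for Nts and 8.39 for Sv2b without that labelled E13.5_ONL2, and to 9.59 for Cntn3, 8.14 for Sez6 and 6.97 for Ntrk2 without that labelled E13.5_ONL5.

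The 10 largest falls were those of Arid3c, Fezf1, Hbb-bh1, Krt8, Cartpt, Cldn7, Prokr2, Prph, Olfr231 and Ache. Arid3c, encoding an AT-rich DNA-binding protein, had 64.0, 69.6, 52.9 and 78.8 CPM in E11.5 and at most 0.845 CPM in an E13.5 ONL library (log2 fold change -7.65, SE 0.54, adjusted p = 5.99e-12). Its mean in E13.5 olfactory nerve was 0.135 CPM. Fezf1, a zinc-finger gene of the olfactory epithelium, had 100.6, 68.7, 99.8 and 80.1 CPM in E11.5, at most 1.30 in an E13.5 ONL library and 113.6 ± 30.8 in E13.5 olfactory nerve (log2 fold change -7.09, SE 0.52, adjusted p = 1.23e-11). The epithelial genes Krt8 and Cldn7 followed Fezf1, with 53.8 ± 16.0 and 61.1 ± 5.24 CPM in E11.5, 1.52 ± 1.75 and 2.19 ± 1.89 in E13.5 ONL, and 95.2 ± 26.4 and 57.6 ± 15.1 in E13.5 olfactory nerve. Prokr2, encoding a prokineticin receptor needed for olfactory bulb and GnRH neuron development, had 676.1, 308.0, 529.7 and 974.8 CPM in E11.5 and 14.1, 4.25, 15.0, 47.1 and 12.7 in E13.5 ONL (log2 fold change -5.07, SE 0.65, adjusted p = 4.44e-07). Prokr2 was as low in E13.5 olfactory nerve, at 13.3 ± 5.46 CPM, and so was the acetylcholinesterase gene Ache, at 11.6 ± 5.02 against 163.8 ± 62.8 in E11.5 and 7.58 ± 2.03 in E13.5 ONL. The peptide precursor gene Cartpt had 52.2 ± 46.9 against 1.43 ± 0.834 CPM. The odorant receptor gene Olfr231 had 103.8 ± 46.8 against 5.13 ± 6.72 CPM, and reads of this multigene family may be shared between near copies. Without single libraries the log2 fold change was -8.58 for Arid3c (without E11.5_ON3), -5.78 for Prokr2 (without E11.5_ON4), -4.34 for Cartpt (without E13.5_ONL2) and -5.28 or -5.60 for Olfr231 (without E11.5_ON1 or E11.5_ON4).

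**Figure D3:**
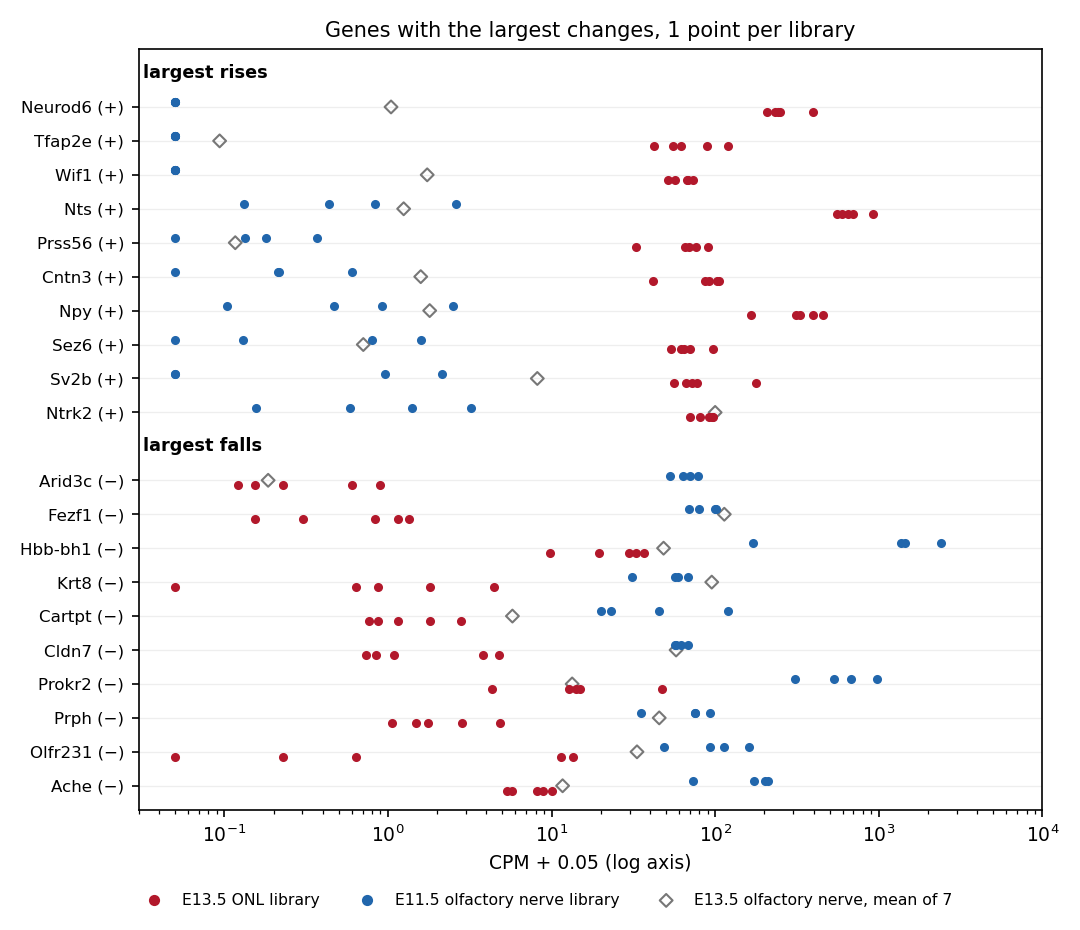
CPM plus 0.05 (x axis, log scale) of the 10 genes with the largest rise and the 10 with the largest fall, for each E13.5 ONL library (red), each E11.5 library (blue) and the mean of 7 E13.5 olfactory nerve libraries (grey diamond). The diamonds lie with the blue points for most rises, but with the red points for Ntrk2, and among the falls within or above the blue points for Fezf1, Krt8, Cldn7 and Prph and nearer the blue points than the red for Olfr231.

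Genes of olfactory bulb and forebrain neurons rose together, 17 of 23 higher, none lower and a median log2 fold change of 3.22, where the count of 0, from edgeR, was also 0 at an unadjusted p under 0.05 and with DESeq2. Their summed level was 3072 to 3881 CPM in the E13.5 ONL libraries and 588 to 887 CPM in the E11.5 libraries. Tbr1, a T-box gene of bulb and cortical projection neurons, had 208.1, 327.5, 345.7, 228.1 and 227.8 CPM against 2.84, 3.67, 7.59 and 7.37 (log2 fold change 5.65, SE 0.59, adjusted p = 1.13e-08). Reln, encoding the secreted matrix protein reelin, had 284.8 ± 78.3 against 28.2 ± 8.995 CPM (log2 fold change 3.33, adjusted p = 7.44e-07). In E13.5 olfactory nerve Tbr1 had 0.784 and Reln 47.6 CPM on average. Sox11 had 880 ± 154 against 479 ± 138 CPM (log2 fold change 0.88, adjusted p = 0.0217), a call lost without the library labelled E11.5_ON3, E13.5_ONL4 or E13.5_ONL5 (0.79, 0.77 or 0.79). The glutamate transporter gene Slc17a6 had 137.6 ± 53.7 and 108.6 ± 29.3 CPM and was not called. Of 14 radial glia and neuroepithelium genes 7 were higher and 1, Nes, was lower, against 20.0% and 16.4% of all genes tested. Ttyh1 had 144.7 ± 22.7 against 10.7 ± 1.79 CPM and Gli3 had 53.0 ± 10.5 against 22.6 ± 5.19. Slc1a3, at 111.4 ± 53.9 against 53.6 ± 6.31 CPM, was called at 1.05 and lost without the library labelled E11.5_ON2 (0.72) or E13.5_ONL4 (0.99). The part of bulb neuron and radial glia RNA in the changes of the OEC genes, several of which such cells can express, was not tested.

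Olfactory sensory neuron genes were lower in 9 of 18 cases and higher in 5, with a median log2 fold change of -1.11. Without the library labelled E11.5_ON1 or E13.5_ON1, 3 were higher. Gng8, encoding a G protein gamma subunit of these neurons, had 75.5, 94.0, 48.7 and 54.1 CPM in E11.5 and 6.09, 4.03, 5.92, 8.20 and 5.59 in E13.5 ONL (log2 fold change -3.52, SE 0.24, adjusted p = 3.13e-12). The Ebf transcription factor genes fell together, Ebf1 from 262.5 ± 40.0 to 111.0 ± 29.0 CPM, Ebf2 from 120.7 ± 24.7 to 31.3 ± 7.29 and Ebf3 from 30.6 ± 10.2 to 10.5 ± 4.51. Among the genes that rose were Olfm1, at 95.8 ± 16.3 against 26.5 ± 7.88 CPM, Neurod1, at 63.4 ± 18.2 against 14.2 ± 5.51, and Ncam2, at 34.7 ± 11.6 against 11.3 ± 3.71. In E13.5 olfactory nerve Olfm1 had 30.2 ± 4.25 CPM, Neurod1 132.7 ± 38.0 and Ncam2 7.09 ± 2.62. Other neurons express these genes too, and their part in the rises was not tested. Gnal was called at 0.81 and lost in 5 of the 9 fits without 1 library, and it shares exon bases with Mppe1 on the other strand. Omp, the marker of mature olfactory sensory neurons, averaged 0.602 and 1.07 CPM and was not called.

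Genes of GnRH and other migrating neurons of the migratory mass fell in 7 of 12 cases and rose in 2, with a median log2 fold change of -1.84. Prph, encoding the filament protein peripherin, had 93.4, 35.2, 75.2 and 74.9 CPM in E11.5 and at most 4.78 in an E13.5 ONL library (log2 fold change -4.98, SE 0.44, adjusted p = 5e-10), and 45.4 ± 17.4 in E13.5 olfactory nerve. Th, encoding the rate-limiting enzyme of catecholamine synthesis, had 101.9 ± 83.8 against 7.58 ± 4.67 CPM (log2 fold change -3.80, adjusted p = 1.76e-05, and -3.19 without the library labelled E13.5_ONL2), and Nhlh2 had 76.0 ± 28.7 against 25.4 ± 8.06. Gnrh1 itself, the releasing hormone gene, varied most between pieces, at 318.5, 1.66, 2.86, 65.0 and 69.2 CPM in E13.5 ONL and 0.662, 1.98, 0.208 and 0.356 in E11.5. Its E13.5 ONL libraries thus split into 3 with and 2 nearly without the transcript, and the groups overlapped. The call (log2 fold change 6.73, SE 1.92, adjusted p = 0.00633) held at 5.36 without the library labelled E11.5_ON1 and 7.68 without that labelled E13.5_ONL3. Dcx, encoding the microtubule protein of migrating neurons, had 558 ± 128 against 121 ± 25.2 CPM (log2 fold change 2.20, adjusted p = 0.00036).

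Of 20 genes of neurons in general 5 were higher and 4 lower, shares near the 20.0% and 16.4% of all genes tested, and without the library labelled E13.5_ONL2 2 were lower. Map2, Mapt, Syt1 and Tagln3 were higher, Map2 for example at 456 ± 144 against 119.5 ± 21.6 CPM. The neurofilament genes were lower, Nefm at 9.37 ± 2.86 against 60.4 ± 18.1 CPM (log2 fold change -2.72, SE 0.28, adjusted p = 1.23e-08) and Nefl at 27.5 ± 15.0 against 73.2 ± 17.1. Nefl and Nefm share exon bases on opposite strands. Nefh and Rbfox3 averaged 0.463 and 2.07 CPM against 2.16 and 5.20, and their calls were lost in 7 and 1 of the 9 fits without 1 library. Stmn2, at 1326 ± 238 and 873 ± 88.8 CPM, was not called.

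Markers of other tissues differed too. Olfactory epithelium genes were lower in 8 of 17 cases and higher in 2, with a median log2 fold change of -1.49 and a summed level of 183 to 289 CPM in E13.5 ONL against 391 to 487 in E11.5. Epcam had 61.2 ± 12.2 CPM in E11.5, 5.63 ± 2.42 in E13.5 ONL and 114.0 ± 47.2 in E13.5 olfactory nerve. The 2 genes of this list that rose were Fezf2, at 59.8 ± 19.5 against 3.73 ± 5.17 CPM, and Pax6, at 19.7 ± 7.67 against 3.94 ± 3.51. In E13.5 olfactory nerve Fezf2 averaged 0.0829 CPM and Pax6 had 16.49 ± 5.394 CPM, so Pax6 was above its E11.5 mean there too. Both genes are also expressed in the forebrain, and the part of forebrain tissue in their rises was not tested. Their log2 fold changes of 4.00 and 2.32 were 5.69 without the library labelled E13.5_ONL5 and 3.08 without that labelled E13.5_ONL3. Craniofacial mesenchyme genes were lower in 8 of 22 cases and higher in 3, against 16.4% and 20.0% of all genes tested. Without the library labelled E11.5_ON2 or E13.5_ONL3, 5 were lower. Six2 fell from 153.6 ± 40.3 to 34.2 ± 5.81 CPM (log2 fold change -2.16, adjusted p = 5.34e-07), while the collagen-binding proteoglycan gene Dcn rose from 7.04 ± 3.13 to 253.8 ± 100.8 (log2 fold change 5.17, SE 0.64, adjusted p = 2.65e-07) and Col1a1 from 46.6 ± 13.6 to 151.3 ± 51.9. Postn rose from 227.2 ± 168.9 to 558.5 ± 227.8 CPM, and Prrx1 fell from 42.4 ± 10.3 to 23.2 ± 8.31. The calls of Alx4 and Alx1, lower at -0.55 and -1.01, were lost in 3 and 5 of the 9 fits without 1 library. Col3a1, at 1496 ± 511 and 1362 ± 281 CPM, was not called. Of 14 meninges genes 8 rose and 4 fell, against 20.0% and 16.4% of all genes tested, with a median log2 fold change of 1.315. Their summed level was lower in E13.5 ONL, at 840.4 to 1125 CPM against 1280 to 1595 in E11.5. Slc6a13, a transporter gene of arachnoid cells, had 30.5 ± 9.42 against 2.73 ± 1.13 CPM and Tbx18 27.9 ± 3.98 against 7.08 ± 3.07. Both were under 1 CPM on average in E13.5 olfactory nerve. Zic4 had 62.2 ± 5.50 against 10.6 ± 14.9 CPM, and its log2 fold change of 2.55 was 4.24 without the library labelled E13.5_ONL5. Cxcl12 and Crabp2 fell, from 687 ± 120 to 351 ± 57.5 and from 401.8 ± 76.9 to 136.7 ± 33.6 CPM.

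Endothelium genes were mostly higher in E13.5 ONL, and mural cell genes moved in both directions. Of 15 endothelium genes 10 rose and none fell, with a median log2 fold change of 0.86. Kdr, encoding the main VEGF receptor, had 71.9 ± 16.4 against 19.5 ± 10.3 CPM (log2 fold change 1.89, SE 0.30, adjusted p = 1.44e-05), and Cldn5, encoding a tight junction protein of brain endothelium, had 54.7 ± 19.1 against 16.3 ± 9.76. Slc2a1, the glucose transporter gene of barrier endothelium, rose from 89.2 ± 30.3 to 135.9 ± 16.49 CPM (adjusted p = 0.00644). Of 11 mural cell genes 6 rose and 2 fell, with a median log2 fold change of 1.09, while their summed level was lower in E13.5 ONL, at 98.2 to 137.0 CPM against 139.9 to 186.7. The pericyte gene Rgs5 had 31.3, 33.7, 34.7, 31.5 and 33.1 CPM in E13.5 ONL and 0, 0.136, 0.0415 and 0.485 in E11.5 (log2 fold change 7.59, SE 0.55, adjusted p = 8.28e-12, and 8.90 without the library labelled E13.5_ONL5). Abcc9 had 12.1 ± 3.18 against 1.29 ± 0.595 CPM and Kcnj8 19.7 ± 5.99 against 2.49 ± 3.14 (log2 fold change 3.00, and 4.39 without the library labelled E13.5_ONL5). Cspg4, at 6.74 ± 1.06 against 3.19 ± 3.08 CPM, was called and lost in 7 of the 9 fits without 1 library. Pdgfrb, which mesenchyme also expresses, fell from 116.1 ± 16.9 to 32.1 ± 7.53 CPM (log2 fold change -1.84, adjusted p = 8.41e-08). Des, encoding the muscle filament protein desmin, fell from 11.3 ± 2.42 to 1.83 ± 0.554 CPM (log2 fold change -2.55, adjusted p = 1.66e-07), with no overlap between the groups. Of 16 macrophage and microglia genes 5 rose and none fell. Lyz2 had 72.7 ± 53.0 against 10.2 ± 7.27 CPM, and Mrc1 and F13a1, genes of border macrophages, had 27.3 ± 6.27 and 23.0 ± 6.01 against 7.98 ± 7.76 and 3.51 ± 2.74. The log2 fold change of Mrc1 was 1.77, and 2.65 without the library labelled E13.5_ONL3. C1qb, at 47.2 ± 16.6 and 52.4 ± 38.1 CPM, was not called. Csf1r, the growth factor receptor gene of these cells, had 42.0 ± 12.8 against 16.48 ± 11.8 CPM, a call lost in 5 of the 9 fits without 1 library, and it shares exon bases with Hmgxb3 on the other strand. For endothelium and macrophages the counts of 0 lower calls, from edgeR, were also 0 at an unadjusted p under 0.05 and with DESeq2.

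Globin transcripts, carried into the pieces with red cells, differed in kind between the groups. Primitive red cells of the yolk sac make Hbb-bh1, Hbb-y and Hba-x, and definitive red cells of the fetal liver make the adult beta-like genes Hbb-bs and Hbb-bt. Hbb-bh1 had 169.9, 1375, 2402 and 1454 CPM in E11.5 and 9.68, 32.8, 29.7, 36.5 and 19.3 in E13.5 ONL (log2 fold change -5.70, SE 0.55, adjusted p = 3.42e-09). Hba-x had 2618 ± 1695 against 348 ± 147 CPM (log2 fold change -2.91, adjusted p = 2.69e-05), while Hbb-y, at 6123 ± 4004 and 4770 ± 1284, was not called. The adult beta-like genes went up, Hbb-bs at 373.8, 190.5, 223.4, 632.9 and 909.7 CPM in E13.5 ONL against 0.874, 8.48, 25.8 and 28.1, and Hbb-bt at 385.6 ± 219.3 against 15.6 ± 11.1. These near-identical genes may share reads, so their split is uncertain and their sum is used below. The adult alpha-globin gene Hba-a1 had 816 ± 352 and 848 ± 529 CPM and was not called.

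As a share of beta-like globin counts, Hbb-bh1 took 16.3% to 20.1% in the 4 E11.5 libraries, 0.264% to 0.615% in the 5 E13.5 ONL libraries and 0.253% to 1.36% in the 7 E13.5 olfactory nerve libraries. Hbb-bs and Hbb-bt together took 0.194%, 0.262%, 0.402% and 0.633% in E11.5 and 20.3%, 5.77%, 7.78%, 18.0% and 24.5% in E13.5 ONL. The 95% Wilson interval of the lowest E13.5 ONL share was 5.62% to 5.92% and that of the highest E11.5 share 0.603% to 0.665%, which cover counting error only. In the 7 E13.5 olfactory nerve libraries the adult share was 3.86% to 20.2%, and in the 15 libraries of E16.5 it was 96.9% to 99.99%. The 2 embryonic genes together took 84.7% ± 8.13 of beta-like counts in E13.5 ONL (SD, n = 5) and 99.6% ± 0.194 in E11.5 (SD, n = 4), a difference of -14.9 percentage points (exact two-sided permutation test, p = 0.0159, the smallest that 5 against 4 libraries can give). Hba-x took 24.5% ± 7.45 and 71.6% ± 2.52 of alpha-like counts, a difference of -47.0 points (exact two-sided permutation test, p = 0.0159). Both tests took pieces as units, from 2 embryos at E11.5 and 4 at E13.5, and measure the spread between pieces only. The shares were not used to group the libraries.

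Promoters of 3 beta-like globin genes are shown because these genes share a cluster and moved apart in this comparison. They are the 150 bases before the start, 5′ to 3′ on the minus strand of chromosome 7, from RefSeq's table for GRCm38.p6, which did not match Hbb-bh1. Capitals mark CACCC, bound by Krüppel-like factors, and CCAAT, each on either strand, and ATAAA of a TATA-like box on the gene's strand. Hbb-bs lies at chr7:103827929-103828078, Hbb-bt at chr7:103813924-103814073 and Hbb-y at chr7:103853208-103853357.
Hbb-bs: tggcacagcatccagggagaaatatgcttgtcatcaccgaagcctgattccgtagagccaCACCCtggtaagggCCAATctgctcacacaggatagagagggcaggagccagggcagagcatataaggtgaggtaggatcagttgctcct
Hbb-bt: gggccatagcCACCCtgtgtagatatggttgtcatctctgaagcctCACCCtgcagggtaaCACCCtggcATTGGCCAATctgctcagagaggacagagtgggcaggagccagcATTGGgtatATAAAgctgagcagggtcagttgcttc
Hbb-y: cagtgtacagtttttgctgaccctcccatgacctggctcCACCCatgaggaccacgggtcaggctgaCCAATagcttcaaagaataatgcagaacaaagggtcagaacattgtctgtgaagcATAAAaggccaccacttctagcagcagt
Each of the 3 runs held CACCC and CCAAT, which 37.4% and 24.5% of the promoters in the table held in this window. CACCC and CCAAT started 90 and 76 bases before the start in Hbb-bs, and 111 and 83 bases before it in Hbb-y. Hbb-bt held CACCC at 3 places, the nearest 89 bases before the start, and CCAAT at 3 places, 75 bases before it on the given strand and 80 and 36 bases before it as the reverse complement. ATAAA was in Hbb-bt and Hbb-y and in 15.1% of all promoters, and these letters were not in the Hbb-bs window.

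**Figure D4:**
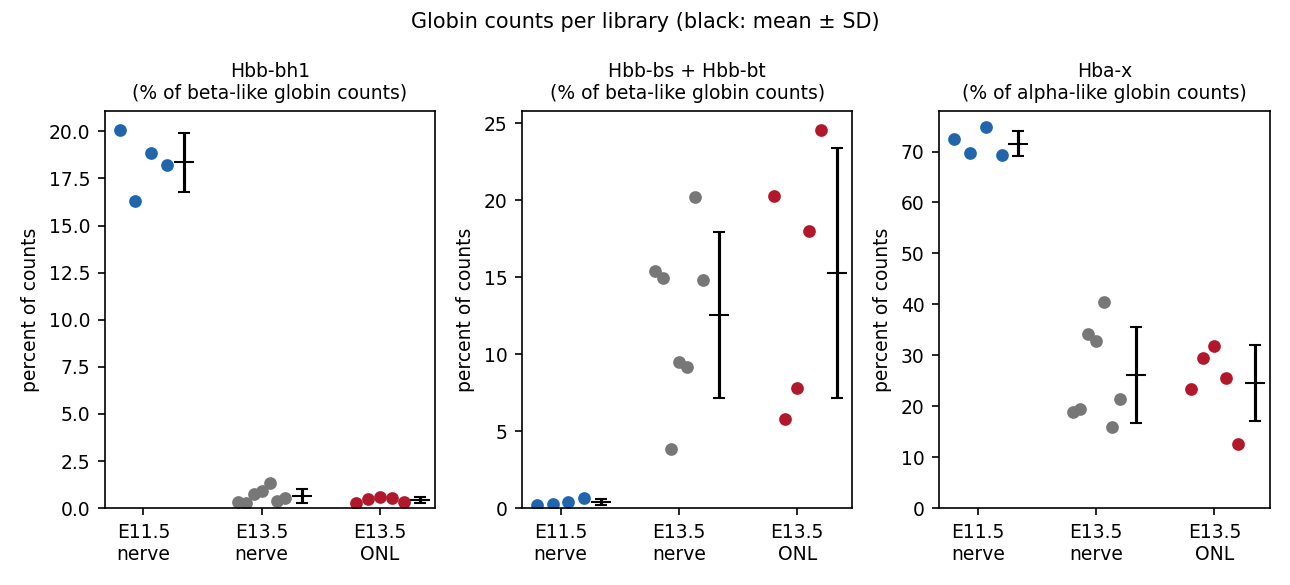
Percent of beta-like globin counts from Hbb-bh1 (left) and from Hbb-bs with Hbb-bt (middle) and percent of alpha-like counts from Hba-x (right), 1 point per library, for E11.5 olfactory nerve (blue, 4 libraries), E13.5 olfactory nerve (grey, 7) and E13.5 ONL (red, 5), with mean ± SD in black. The E11.5 libraries lie at 16.3% to 20.1% for Hbb-bh1 and under 1% for the adult genes, apart from both E13.5 groups.

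Other red cell genes fell in 6 of 9 cases and rose in none, by edgeR, DESeq2 or an unadjusted p under 0.05. Klf1, the Krüppel-like factor gene of red cells, had 5.54, 14.8, 33.0 and 21.0 CPM in E11.5 and 0.277, 0.360, 0, 2.49 and 1.68 in E13.5 ONL (log2 fold change -4.19, SE 0.60, adjusted p = 2.36e-06). Hemgn, a nuclear protein gene of red cell precursors, had 19.2 ± 12.9 against 0.121 ± 0.179 CPM (log2 fold change -6.78, and -8.46 without the library labelled E13.5_ON1). The anion exchanger gene Slc4a1 was called at -1.52 and lost in 6 of the 9 fits without 1 library, and Car2 was not called.

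Genes of the Lin28 and let-7 axis and its targets, which fall as embryos age, were lower in E13.5 ONL in 11 of 12 cases, with a median log2 fold change of -1.49. Igf2bp3, encoding an mRNA-binding protein, had between 175.3 and 202.6 CPM in the 4 E11.5 libraries and between 68.8 and 94.0 in the 5 E13.5 ONL libraries (log2 fold change -1.26, SE 0.12, adjusted p = 3.62e-09). Hmga2, encoding a chromatin protein of growing tissue, had 140.4, 119.9, 120.7 and 77.9 CPM against 43.2, 37.8, 51.0, 48.4 and 43.9 (log2 fold change -1.35, SE 0.26, adjusted p = 0.000116). Igf2bp2 and Igf2bp1 fell from 186.4 ± 32.9 to 102.2 ± 15.5 and from 40.9 ± 7.30 to 20.9 ± 5.76 CPM. Lin28a, named after its values were seen, had 4.19, 7.34, 2.86 and 3.43 CPM in E11.5 and counts at or under the floor in every E13.5 ONL library, at least 13.4-fold lower. For all 11 called genes no E13.5 ONL library reached any E11.5 library, where 10.8% of all tested genes did the same. Mycn, at 44.6 ± 4.51 and 54.2 ± 11.4 CPM, was the gene not called. Means in E13.5 olfactory nerve were 66.3 CPM for Igf2bp3, 82.1 for Hmga2, 105.6 for Igf2bp2 and 0.108 for Lin28a. Igf2bp3 shares exon bases with Malsu1 on the other strand.

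Nuclear factor I genes, which rise as neural tissue turns to making glia, were higher, Nfia at 75.0 ± 17.1 against 24.3 ± 6.90 CPM (log2 fold change 1.62, SE 0.17, adjusted p = 1.28e-08), Nfib at 313.6 ± 95.3 against 153.9 ± 46.8 and Nfix at 10.1 ± 3.26 against 0.282 ± 0.276. The log2 fold change of Nfix was 5.14, and 6.03 without the library labelled E13.5_ONL3. In E13.5 olfactory nerve Nfia and Nfib had 163.9 ± 16.4 and 683 ± 105 CPM, above both groups. With their partners 4 of 7 genes rose and 1, Sox9, fell. Of 25 cell cycle genes 8 were lower and 1 higher, against 16.4% and 20.0% of all genes tested. Their median log2 fold change was small, at -0.18. The replication genes Mcm7 and Mcm2 had 184.4 ± 17.4 and 176.6 ± 33.9 CPM against 274.4 ± 70.1 and 263.9 ± 49.3, Tyms fell from 218.4 ± 34.0 to 152.7 ± 23.5, and Rrm2 was called at -0.51 and lost without the library labelled E13.5_ONL4 (-0.39). The D-type cyclin gene Ccnd2 rose from 982 ± 130 to 1611 ± 261 CPM (adjusted p = 0.00131), and Mcm6, at 286.6 ± 74.5 and 274.2 ± 96.9, was not called. Mcm7 shares exon bases with Cops6 and Ap4m1 on the other strand.

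Adhesion molecules of olfactory axons were higher in 15 of 18 cases and lower in 1 (2 without the library labelled E11.5_ON1), with a median log2 fold change of 1.57, or 1.42 with the gene at the floor set to its bound. The cadherin genes Cdh2 and Cdh11 had 281.3 ± 75.8 and 190.6 ± 41.5 CPM in E13.5 ONL against 194.6 ± 29.6 and 102.1 ± 13.6, though Cdh2 was lost without the library labelled E11.5_ON2 (0.37, adjusted p = 0.0536). Nrcam and Cntn2, of the immunoglobulin family, had 200.4 ± 62.0 and 174.6 ± 53.5 against 103.9 ± 29.2 and 70.1 ± 13.1 CPM, calls lost in 3 and 7 of the 9 fits without 1 library. Ncam1 was the gene that fell, from 365.3 ± 62.5 to 250.8 ± 33.1 CPM (log2 fold change -0.54, adjusted p = 0.00884), and L1cam, at 67.1 ± 14.7 and 50.6 ± 14.0, was not called.

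Of 22 semaphorin, plexin and neuropilin genes 9 rose and 7 fell, with a median log2 fold change of 0.50, and 4 fell without the library labelled E13.5_ONL3. The semaphorin gene Sema6d had 103.5, 98.8, 97.4, 79.1 and 91.3 CPM against 11.1, 17.0, 13.2 and 18.8 (log2 fold change 2.64, SE 0.18, adjusted p = 3.24e-12), and the receptor gene Plxna2 76.5 ± 15.3 against 19.8 ± 2.99 (log2 fold change 1.95, adjusted p = 2.83e-10). Plxnb2 fell from 164.7 ± 31.2 to 86.8 ± 12.95 CPM and Plxna1 from 51.3 ± 9.71 to 30.9 ± 5.15. Nrp1 was called lower at -0.71 and lost in 3 of the 9 fits without 1 library, Plxnb1 at -0.49 and lost in 4, Sema3a was called higher at 0.96 and lost in 7, and Nrp2 was not called. Of 24 Slit, Robo, netrin, Eph and ephrin genes 6 rose and 3 fell, shares near the 20.0% and 16.4% of all genes tested. The ephrin gene Efnb2 had 159.8 ± 44.7 against 14.6 ± 4.10 CPM (log2 fold change 3.46, SE 0.23, adjusted p = 1.81e-12) and the receptor gene Epha3 110.3 ± 63.0 against 7.25 ± 5.36 (log2 fold change 3.92, adjusted p = 9.28e-07, and 4.52 without the library labelled E13.5_ONL5). Robo2 was called at 1.00 and lost without the library labelled E11.5_ON1 (0.78) or E13.5_ONL4 (0.84), Efnb1 at 0.85 and lost in 5 of the 9 fits. Efna5 and Efna1 fell by 0.52 and 1.34 on the log2 scale, Ntn1 fell from 5.23 to 0.931 CPM, and Robo1 was not called.

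Retinoic acid pathway genes were lower in 7 of 16 cases and higher in 3, against 16.4% and 20.0% of all genes tested. Their median log2 fold change was -0.67, or -0.09 with the genes at the floor set to their bound. Crabp1, encoding a cellular retinoic acid-binding protein of migrating crest, had 1165, 838.9, 1264 and 603.4 CPM in E11.5 and 49.8, 211.4, 179.0, 100.8 and 75.9 in E13.5 ONL (log2 fold change -2.97, SE 0.37, adjusted p = 2.39e-07), and the retinol receptor gene Stra6 fell from 104.5 ± 32.5 to 37.9 ± 11.04. Aldh1a2 was called lower at -1.14 and lost without the library labelled E11.5_ON2 (-0.90), E11.5_ON3 (-1.08) or E13.5_ONL5 (-0.68), and had 776 ± 131 CPM in E13.5 olfactory nerve against 80.8 ± 52.8 in E11.5. The retinol dehydrogenase gene Rdh10 rose from 16.3 ± 7.17 to 43.9 ± 7.53 CPM, and Aldh1a3 was called at 1.81 (3.09 without the library labelled E13.5_ONL3). Cyp26b1, which degrades retinoic acid, averaged 0.932 CPM in E13.5 ONL (log2 fold change 3.95 without the library labelled E13.5_ON1 and 7.21 without E13.5_ONL4) and had at most 2 counts in an E11.5 library, at least 9.75-fold higher. Of 18 FGF pathway genes 4 rose and 5 fell, against 20.0% and 16.4% of all genes tested. The count of rises was unstable, at 1 with scaling by total count or by the upper quartile, 1 without the library labelled E11.5_ON3 or E13.5_ONL5 and 2 without that labelled E11.5_ON4, E13.5_ON1 or E13.5_ONL4. Among the ETS factor genes that FGF signalling induces, Etv1 rose from 53.5 ± 3.71 to 372.5 ± 65.0 CPM (log2 fold change 2.80, SE 0.20, adjusted p = 5.99e-12), Etv4 fell from 88.1 ± 35.3 to 19.7 ± 2.60 (log2 fold change -2.16, adjusted p = 6.48e-09) and Etv5 was not called. The feedback genes Dusp6 and Il17rd fell from 398.5 ± 130.0 to 144.0 ± 28.2 and from 47.8 ± 7.35 to 16.9 ± 1.31 CPM. Spred1, Spred2 and Spry2 were called at 0.38, 0.48 and 1.00 and Fgfr1 at -0.60, and each of these 4 calls was lost in 4 to 6 of the 9 fits without 1 library.

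Immediate early genes, which tissue handling can induce, differed between the groups as well. Of 11 immediate early and stress genes tested 5 were lower in E13.5 ONL and none was higher, with a median log2 fold change of -0.70 and a summed level of 76.1 to 243.7 CPM against 368 to 499. The count of 0 higher calls, from edgeR, was also 0 with DESeq2 and at an unadjusted p under 0.05. Ier2 had 245.0, 208.6, 245.6 and 175.7 CPM in E11.5 and 12.2, 49.5, 29.7, 19.8 and 27.6 in E13.5 ONL (log2 fold change -2.95, SE 0.32, adjusted p = 1.9e-08), and Jun had 91.0 ± 25.5 against 28.1 ± 15.6. Egr1 and Ddit3 fell from 30.9 ± 12.1 to 10.2 ± 3.66 and from 33.4 ± 4.19 to 19.4 ± 3.98 CPM. Fos averaged 2.54 and 2.43 CPM and Dusp1 33.6 ± 25.2 and 25.2 ± 4.995, and neither was called. None of 5 sex-linked transcripts was called by edgeR or DESeq2, and 0 had an unadjusted p under 0.05, but 3 were called lower by edgeR without the library labelled E11.5_ON1. Xist was at 0 in 1 of 5 E13.5 ONL libraries and 2 of 4 E11.5 libraries. Their part, and that of depth, in the other changes was not tested.

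**Figure D5:**
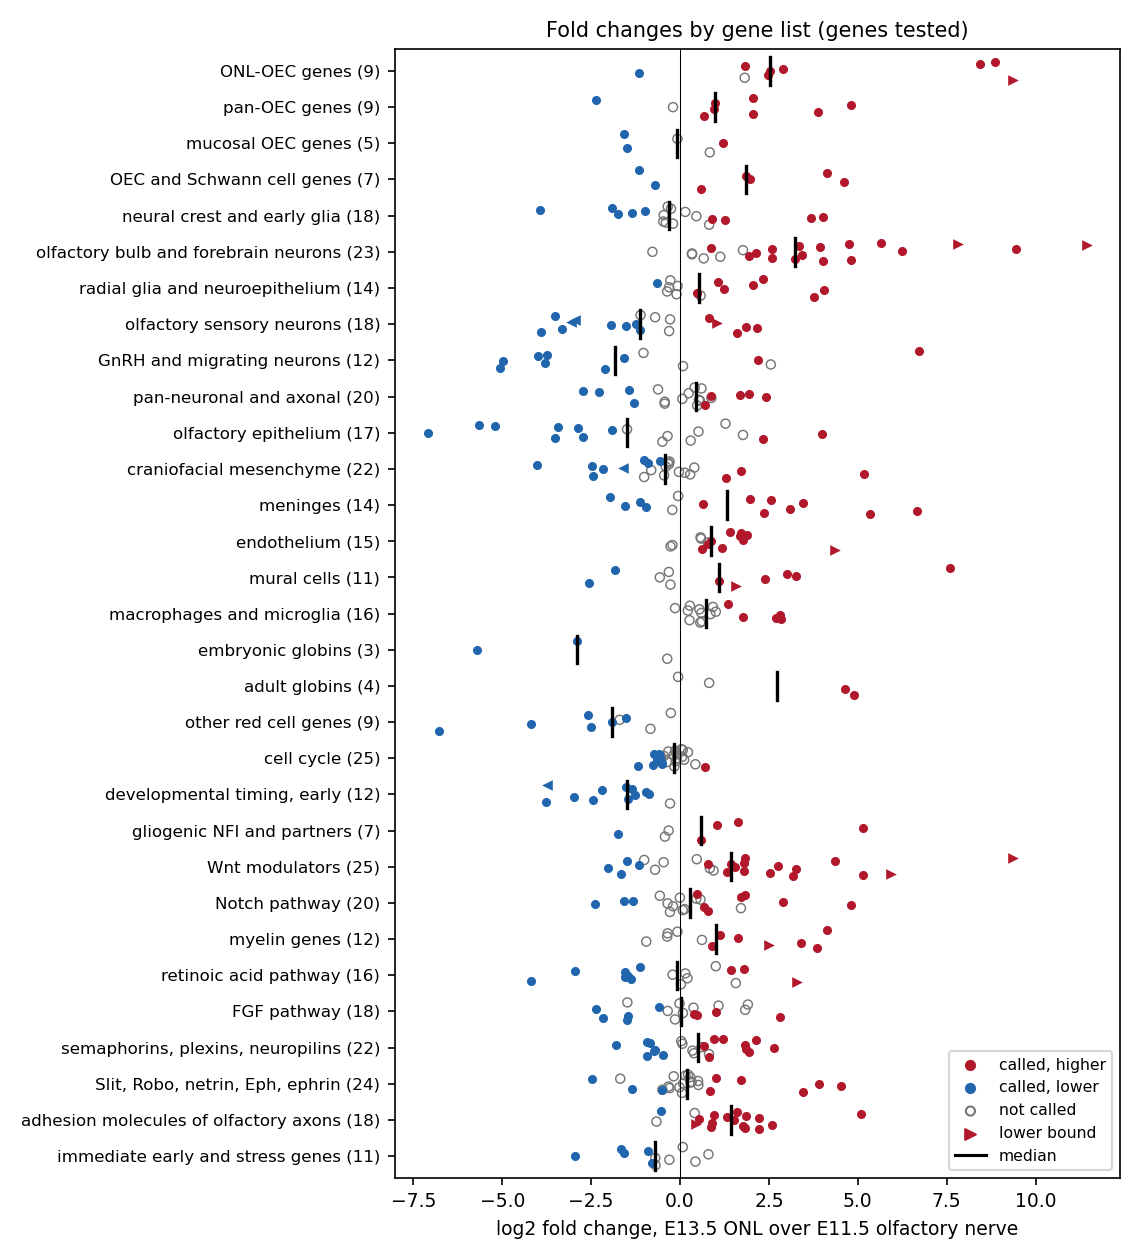
Log2 fold changes (E13.5 ONL over E11.5 olfactory nerve) of the tested genes of 31 lists, with called genes in red (higher) or blue (lower), genes not called as open circles, genes at or under 3 counts in every library of 1 group as triangles at their bound, genes at that floor in both groups left out, and the median as a black bar. The bar lies furthest right for olfactory bulb and forebrain neurons and furthest left for embryonic globins.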

How the data were processed

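Laser-microdissected pieces of mouse olfactory and trigeminal nerve gave 31 RNA-seq libraries (low-input SMART-Seq v4 and Nextera XT). The authors aligned reads to mm10 with TopHat2 2.1.0 and counted them per gene with HTSeq, as the labels and the study's methods state, and deposited unnormalized counts of reads for 47729 Ensembl genes. The strand setting is not given in the sources used here. The row without a gene name was left out. Totals per library ran from 3512627 to 36705535 counts. Groups at E11.5 and E13.5 followed the study's table of group means, of which 1999 genes were at hand, and 10 of 31 libraries carry another label. Counts were tested with edgeR 4.0.16 (quasi-likelihood, TMM, filterByExpr, 1 coefficient per group in all 31 libraries, Benjamini-Hochberg over 19332 genes). A count of 3 or fewer per library was treated as a floor.

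Named genes were the OEC genes, up to 10 largest rises and falls, and, from each other list, up to 4 called genes per direction by mean CPM with the most abundant one not called. Further listed genes were named outside this rule, among them Pax3, Mbp, Omp, Fos, Lin28a and the Wnt genes marked above. Of 444 listed genes 3 had no match. A few listed genes enter the counts and medians of their lists but are not reported here. The members and lists were chosen with earlier results of these data known. Gene positions and exons were those of GENCODE M21 (GRCm38). DESeq2 1.42.0, other scalings and filters, the 9 libraries alone, a replicate block, the GEO labels and leaving out each library were tried in turn. Leaving out 2 libraries, thinning and levels relative to Sox10 were added after seeing the data. The fits were tested on simulated data.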

Additional observations from a re-analysis of the deposited data

Results flagged for a closer look

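Of 90 groups of 4 or 5 libraries examined for a single library far from the rest, 7 had one by Dixon's test, where chance flags about 1 in 20. Among OEC genes, Adgrg1 had 127 CPM in the library labelled E11.5_ON2, against 60.8 to 68.3 in the other E13.5 ONL libraries. Cntn1 had 102 CPM in that labelled E11.5_ON1, against 25.6 to 39.4. Sema6a had 82.7 CPM in the E11.5 library labelled E13.5_ONL3, against 56.6 to 59.4, and Sox5 had 55.3 CPM in that labelled E13.5_ONL4, against 41.4 to 42.8. Among the largest changes, the library labelled E11.5_ON1 also stood apart for Neurod6, at 397 CPM against 206 to 250, and Sv2b, at 177 CPM against 55.6 to 77.7. Prokr2 had 47.1 CPM in the library labelled E11.5_ON4, against 4.25 to 15.0. The library labelled E11.5_ON1, which held the highest value in 3 of the 7 cases, had the lowest total of the 9. The part of depth in these values was not tested.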

How the results depend on the processing

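Of 7037 genes called, DESeq2 called 7435 and the other scalings and filters 6805 to 7111, and leaving out 1 library gave 6401 to 6851. The split between higher and lower was 3863 and 3174 with TMM and 3518 and 3593 with scaling by total count. Alone, the 9 libraries gave 4549 calls, 2364 of them higher. Thinned to the lowest total they gave 2642, with 1423 higher and 1219 lower among 13289 genes tested. A log2 fold change of at least 1 left 3996, with 2421 higher and 1575 lower. Grouping by the GEO labels gave 5028 calls, 2471 higher by libraries, and 4730 of 4731 shared calls kept their sign by libraries. The labelled groups leave out the library E13.5_ON1 and take in E13.5_ONL1, and the other libraries then carry the name of the opposite group. Same-numbered libraries correlated at 0.0282, 0.0753 and 0.0922 in their deviations from the group means, so the numbers were not taken to pair them. A replicate block gave 2146 calls, with 1334 higher and 812 lower. Leaving out the libraries labelled E11.5_ON1 and E13.5_ON1 gave 5750. The cause of these differences was not tested.

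By GEO labels the embryonic share of beta-like globin differed by 9.70 points, labelled E13.5 ONL minus labelled E11.5 (exact permutation test, p = 0.111). The sign was the reverse of that of -14.9 by group name, since the groups exchange names. By libraries the direction was the same. The difference of -14.9 ran from -17.27 to -12.58 without 1 library. Over 201 named genes and every alternative, 3623 of 4010 values kept direction and call, 342 lost the call, 15 gained it and 30 changed sign. In these counts and below, fold changes by the GEO labels are signed by libraries. By group name, 195 of the 201 named genes changed sign with the labels. By the labels, log2 fold changes turned to -1.48 for Sostdc1, -0.25 for Bgn, -0.39 for Sfrp1, -0.21 for Aldh1a3, -1.56 for Cyp26b1 and -0.0498 for Cdh11. With the replicate block they turned to 0.17 for Ramp2, 0.79 for C1qb, 0.37 for Hbb-y, 0.35 for Hba-a1, 0.0197 for Slc4a1 and -0.0071 for Mcm6. Without both libraries named above they were -1.70 for Sostdc1, 0.05 for C1qb and -0.0156 for Mcm6. Without 1 library they ran from -0.077 to 1.25 for Sostdc1, -0.0519 to 0.28 for Col3a1, -0.43 to 0.0573 for Ramp2, -0.49 to 0.31 for C1qb, -0.74 to 0.0119 for Hbb-y, -0.43 to 0.18 for Hba-a1, -0.14 to 0.22 for Mcm6, -0.35 to 0.0285 for Etv5 and -0.0492 to 0.65 for Dusp1. The cause of these changes was not tested.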
